A study of Drosophila melanogaster with 8 samples.

Results

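The nicotinic acetylcholine receptor subunit genes of Drosophila melanogaster were read on Affymetrix Drosophila_2 arrays in adult heads. The members were the probe sets annotated to a single one of 10 subunit genes, 7 alpha and 3 beta, whatever their level. This gave 9 of the 10 genes, among 11981 genes read on the arrays, and 12 of 18769 probe sets. nAChRalpha1, nAChRalpha4 and nAChRbeta1 were each read by 2 probe sets and the other 6 genes by 1, while nAChRalpha6 was not analysed here. The study compared 4 WT samples with 4 HEXIM knockdown samples, all labelled as strain W118, adult heads, and reared at 29°C. In the HEXIM knockdown flies the GMR-Gal4 driver expressed a UAS hairpin RNA against Hexim, which encodes an inhibitor of the elongation factor P-TEFb. The WT flies are given as the wild type strain alone, so that a part of the driver or of hairpin expression as such cannot be told apart from that of Hexim. GMR-Gal4 is active in differentiating eye cells, while each sample was RNA of pooled entire heads, the brain included. The age and sex of the flies, and which insertion of the hairpin was used for the arrays, are not given in the sources used here.

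Nicotinic acetylcholine receptors are cation channels of the Cys-loop superfamily, built of several subunits around a central pore. Acetylcholine is the main excitatory transmitter of the insect central nervous system, and these receptors carry most of its fast action. Alpha subunits hold a pair of neighbouring cysteines in the ligand-binding site, which beta subunits lack, and both kinds take part in binding acetylcholine. The receptors are also the targets of the neonicotinoid and spinosyn insecticides.

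nAChRbeta3 was the 1 subunit gene that passed the test between genotypes, as 1 of 12 probe sets beside 0.256% of all probe sets. This call was lost in 10 of 16 processing alternatives, 7 of them fits without 1 array. Its signal in HEXIM knockdown heads was 0.519 of that in WT heads, whereas none of the 11 probe sets of the other 8 subunit genes was called. Their changes on the log2 scale lay between -0.079 and 0.14. The markers of neurons (18 probe sets) and the other genes of the cholinergic synapse (6) gave no call either. With 0.256% of all probe sets called, lists of this size would mostly give none. In the other marker lists only TpnC4, of muscle, was called, as lower.

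Each array gives 1 log2 signal per probe set, and limma compared HEXIM knockdown with WT in 18769 probe sets, the Affymetrix controls left out. Each log2 fold change is that of HEXIM knockdown over WT. A call is an adjusted p (Benjamini-Hochberg) under 0.05. Of all probe sets, 0.112% were called as lower, and in 5.35% the 4 arrays of one genotype lay apart from the 4 of the other. Hexim itself stood at 8.14, 7.85, 7.96 and 7.79 in WT and at 7.60, 7.54, 7.52 and 7.77 in HEXIM knockdown replicates 1 to 4, a difference of -0.33 on the log2 scale that was not called (adjusted p = 0.418, limma). The arrays of WT replicates 1 and 3 and HEXIM knockdown replicate 4 stood apart from the other 5 on the first principal component, with 51.3% of the variance. In these 3 arrays the middle probe sets of the control genes GAPDH and Act5C had their lowest levels relative to the probe sets of the 3' end, a measure sensitive to shortened RNA or cDNA, with mean differences of -3.20 to -2.97 against -2.29 to -2.01 in the others. Results are therefore also given without these arrays, or with this measure as a covariate.

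nAChRbeta3 encodes an atypical beta subunit, and its gene lies on chromosome arm 2L. Its probe set had log2 signals of 9.47, 9.25, 9.41 and 9.27 in WT replicates 1 to 4. In HEXIM knockdown replicates 1 to 4 the signals were 8.32, 8.17, 8.47 and 8.65. The genotypes did not overlap, as in 3.37% of all probe sets in this direction, with a gap between the dimmest WT and the brightest knockdown array, and within each genotype the arrays that stood apart (WT 1, WT 3 and knockdown 4) were the brightest. The WT mean was 9.35 ± 0.11 and the HEXIM knockdown mean 8.40 ± 0.21 (SD, n = 4 each). nAChRbeta3 thus fell by 0.95 on the log2 scale (SE 0.11, 95% interval -1.21 to -0.68, adjusted p = 0.0205 from limma). An exact two-sided permutation test gave p = 0.0286, the smallest that 4 arrays against 4 allow. As the genotypes did not overlap, this p was fixed and only restates that they lay apart. On the linear scale the interval of the ratio ran from 0.433 to 0.623. The size of the difference changed little between alternatives, from -1.09 to -0.87, but the call did not hold in 10 of 16. Without HEXIM knockdown replicate 4 the adjusted p was 0.0109, and without any other single array it was 0.0514 to 0.112, with 10 to 46 calls over all probe sets. The call was also lost without WT replicates 1 and 3 and HEXIM knockdown replicate 4 (log2 fold change -0.94, adjusted p = 0.12). With the control gene measure as a covariate the log2 fold change was -0.91 (SE 0.087, adjusted p = 0.00511). In whole heads, fewer cells that express a gene and less RNA per cell cannot be told apart.

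**Figure D1:**
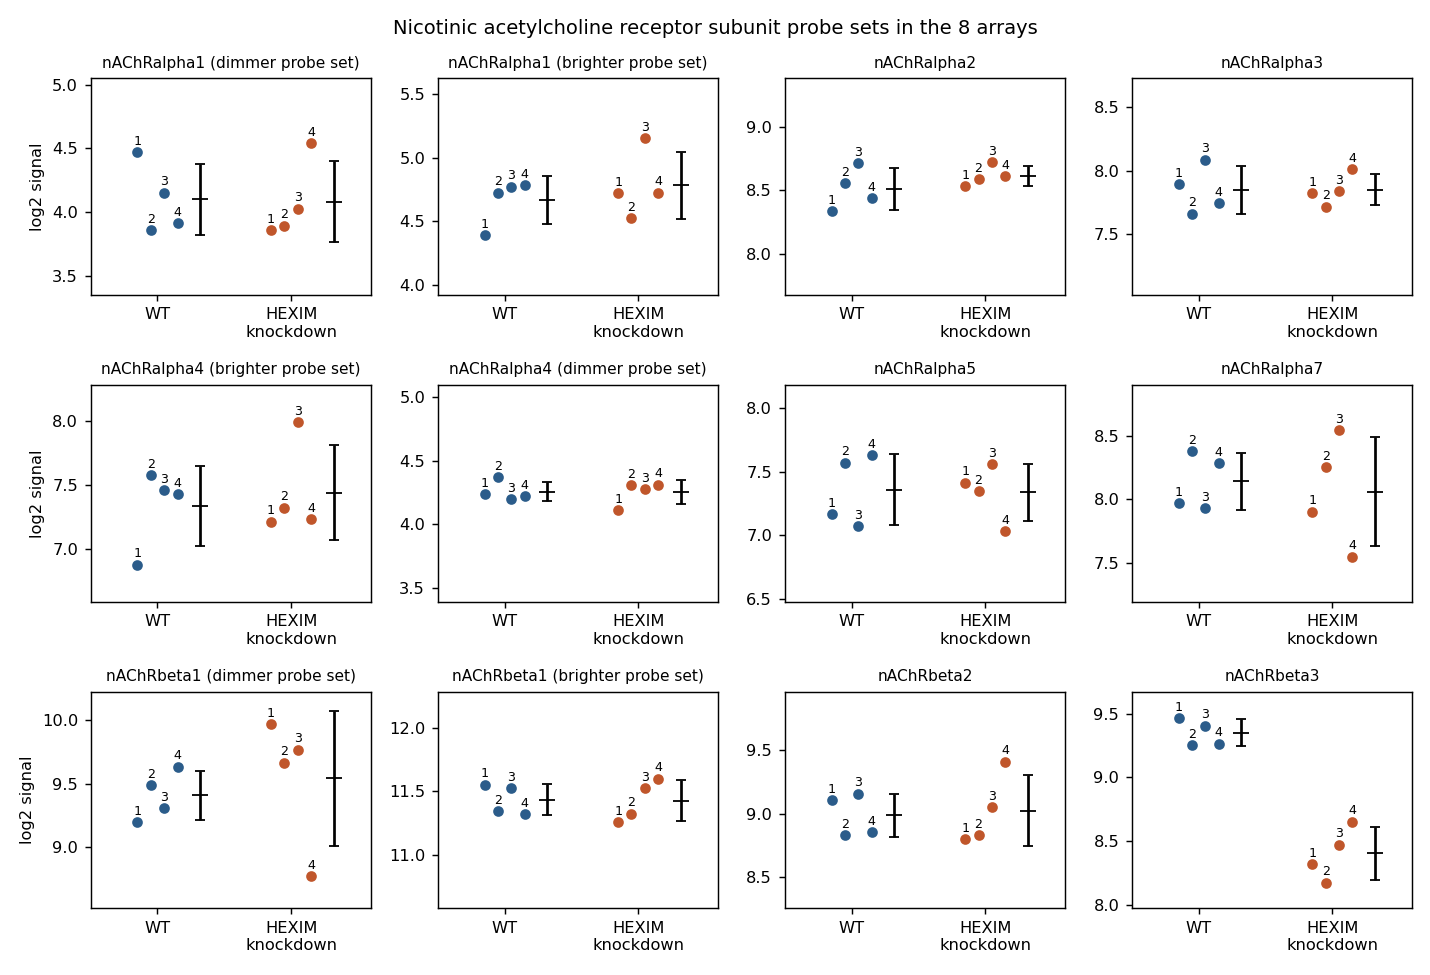
Log2 signal (vertical axes, all spanning the same number of log2 units) of each subunit probe set in the WT (blue) and HEXIM knockdown (orange) arrays, with replicate numbers beside the points and the mean ± SD in black. Only for nAChRbeta3 do the genotypes lie apart, at 9.25 to 9.47 in WT and 8.17 to 8.65 in HEXIM knockdown.

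The other measured beta subunits, nAChRbeta1 and nAChRbeta2, are broadly used partners of the alpha subunits. nAChRbeta1 was bright in both of its probe sets. Its brighter probe set stood at 11.55, 11.34, 11.53 and 11.32 in WT and at 11.26, 11.33, 11.52 and 11.60 in HEXIM knockdown replicates 1 to 4. The genotypes overlapped, and the log2 fold change was -0.0079 (SE 0.10, 95% interval -0.25 to 0.23). The dimmer probe set stood at 9.20, 9.49, 9.31 and 9.63 in WT and at 9.97, 9.66, 9.77 and 8.77 in HEXIM knockdown replicates 1 to 4. Here HEXIM knockdown replicate 4 was the lowest of the 8 arrays, and the other knockdown arrays were the highest. Its log2 fold change was 0.14 (SE 0.24), and 0.39 without HEXIM knockdown replicate 4 (SE 0.13, adjusted p = 0.376 from limma). nAChRbeta2 stood at 9.11, 8.83, 9.16 and 8.85 in WT and at 8.80, 8.83, 9.05 and 9.41 in HEXIM knockdown replicates 1 to 4. The values interleaved, with a log2 fold change of 0.037 (SE 0.15, 95% interval -0.31 to 0.38).

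nAChRalpha1 and nAChRalpha2 lie near nAChRbeta2 on chromosome arm 3R. In the RefSeq gene order (assembly Release 6 plus ISO1 MT) 4 annotated genes separate nAChRalpha1 from nAChRalpha2 and 1 separates nAChRalpha2 from nAChRbeta2. nAChRalpha1, a subunit in which resistance to neonicotinoids has been mapped, was dim in both probe sets, with WT means of 4.67 ± 0.19 and 4.10 ± 0.28 (SD, n = 4). The lower quartile of all probe set means was 4.00, and a change at such levels is hard to detect. The log2 fold changes of nAChRalpha1 were 0.11 (SE 0.15) in the brighter and -0.019 (SE 0.19) in the dimmer probe set. nAChRalpha2 stood at 8.34, 8.56, 8.72 and 8.44 in WT and at 8.53, 8.59, 8.72 and 8.61 in HEXIM knockdown replicates 1 to 4. The knockdown arrays lay from the middle of the WT range to its upper end, and the log2 fold change was 0.10 (SE 0.097, 95% interval -0.12 to 0.32). The suffix of this probe set (_s_at) marks probes shared by several transcripts, which can belong to different genes. None of the genes of this cluster passed the test.

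nAChRalpha3 and nAChRalpha4 are further subunits of the nervous system, on arms X and 3L. nAChRalpha3 stood at 7.90, 7.66, 8.09 and 7.74 in WT and at 7.82, 7.72, 7.84 and 8.01 in HEXIM knockdown replicates 1 to 4. The difference of its means was the smallest of the 12 probe sets, with a log2 fold change of 0.0020 (SE 0.11, 95% interval -0.25 to 0.26). nAChRalpha4, identified in a sleep mutant named redeye, had signals of 6.87, 7.58, 7.46 and 7.43 in WT and of 7.21, 7.32, 7.99 and 7.23 in HEXIM knockdown replicates 1 to 4 in its brighter probe set. WT replicate 1 was the lowest and HEXIM knockdown replicate 3 the highest of the 8 arrays. Its log2 fold change was 0.11 (SE 0.21), and -0.0056 (SE 0.079) in the dimmer probe set, which stood at 4.26 ± 0.078 (SD, n = 4) in WT heads.

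nAChRalpha5 and nAChRalpha7, with nAChRalpha6, form the group of fly subunits most related to the vertebrate alpha7 subunit. nAChRalpha5 stood at 7.17, 7.57, 7.07 and 7.63 in WT and at 7.42, 7.35, 7.56 and 7.03 in HEXIM knockdown replicates 1 to 4. The 3 lowest values were those of WT 1, WT 3 and knockdown 4, and the log2 fold change between genotypes was -0.023 (SE 0.16). nAChRalpha7, which the giant fibre escape circuit requires, had signals of 7.97, 8.38, 7.93 and 8.28 in WT and of 7.90, 8.25, 8.54 and 7.55 in HEXIM knockdown replicates 1 to 4. The knockdown arrays held both the lowest and the highest value, and the log2 fold change of -0.079 had an SE of 0.21 and the lowest lower bound of the 11 other probe sets (95% interval -0.57 to 0.41).

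Of these 11 probe sets, 6 were higher and 5 lower in HEXIM knockdown by their means, with standard errors of 0.079 to 0.24 and unadjusted p from limma of at least 0.32. None had an unadjusted p under 0.05, compared with 7.24% of all probe sets. Their 95% intervals, each taken alone, reached from -0.57 at the lowest to 0.69 at the highest, so that a fall of the size measured for nAChRbeta3 lay outside all 11. For both nAChRalpha1 probe sets (WT means 4.67 and 4.10) and the dimmer nAChRalpha4 probe set (4.26) this says little. A change at such low levels is hard to detect. Over the 12 member probe sets the median log2 fold change was -0.0018, beside -0.016 over all probe sets.

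**Figure D2:**
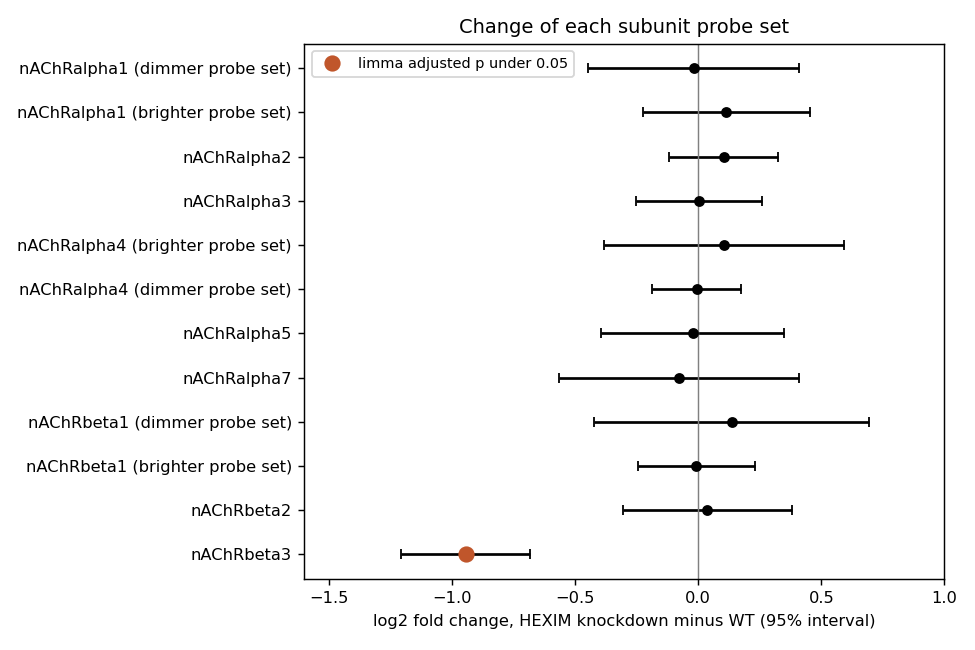
Log2 fold change of each subunit probe set, HEXIM knockdown minus WT (horizontal axis, points), with its 95% interval from limma (bars), and the probe set with an adjusted p under 0.05 in orange. nAChRbeta3 lies at -0.95, and the other 11 probe sets lie between -0.079 and 0.14.

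The signal of nAChRbeta3 was also set against that of each other probe set within the same array. As nAChRbeta3 was taken for its fall and the other subunits changed little, this is a description that restates the fall, with no test. The mean change of the difference between HEXIM knockdown and WT was -1.08 to -0.87 on the log2 scale over the 11 probe sets. The genotypes overlapped in the differences from nAChRalpha7 and from the dimmer nAChRbeta1 probe set, and lay apart in the other 9.

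**Figure D3:**
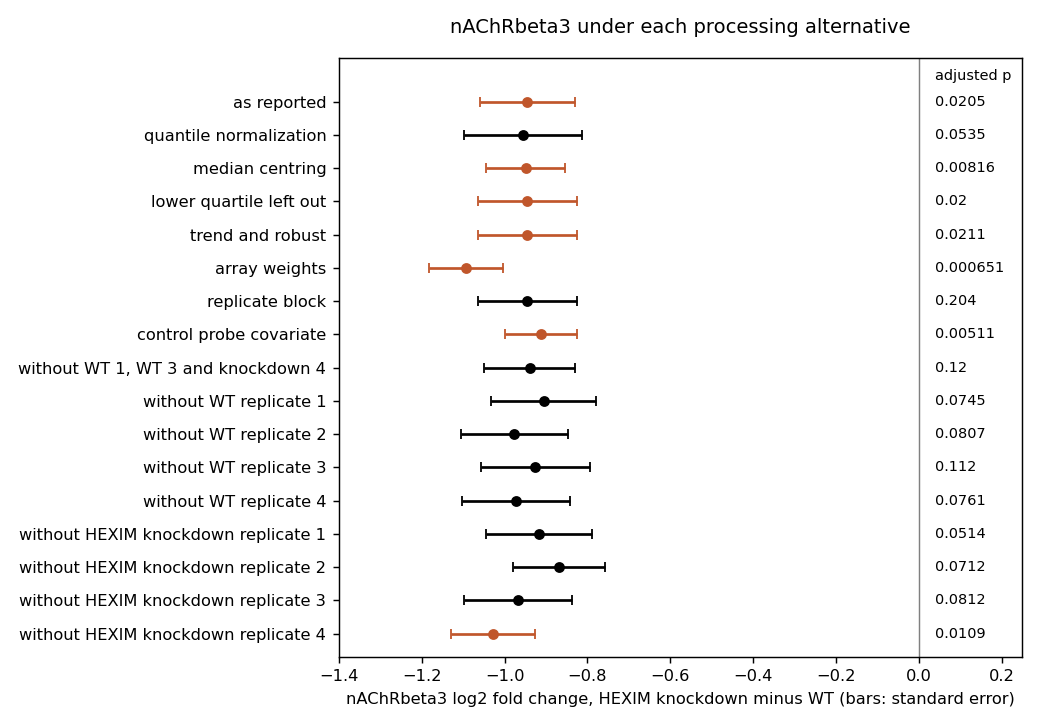
Log2 fold change of nAChRbeta3 (points) with its standard error (bars) as reported and under each processing alternative, with the adjusted p from limma at the right and alternatives under 0.05 in orange. The fold change stays between -1.09 and -0.87. The adjusted p ranges from 0.000651 with array weights, where HEXIM knockdown replicate 2 has by far the highest weight, to 0.204 with a replicate block.

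In WT heads the subunit probe sets covered a wide range of signals. The order, from bright to dim, was nAChRbeta1 (11.44), its dimmer probe set (9.41), nAChRbeta3 (9.35), nAChRbeta2 (8.99), nAChRalpha2 (8.51), nAChRalpha7 (8.14), nAChRalpha3 (7.85), nAChRalpha5 (7.36), nAChRalpha4 (7.33), nAChRalpha1 (4.67) and the dimmer probe sets of nAChRalpha4 (4.26) and nAChRalpha1 (4.10), as mean log2 signals of 4 arrays. This is an order of signals and not of transcript amounts, since probe sets differ in how strongly they bind. The 2 probe sets of nAChRalpha4 alone differed by 3.08 on the log2 scale and those of nAChRbeta1 by 2.03. Among the 11 neighbouring pairs in this order, the WT ranges overlapped in 5, among them nAChRbeta3 with the dimmer nAChRbeta1 probe set and nAChRalpha5 with nAChRalpha4. Between WT and HEXIM knockdown the order changed mainly for nAChRbeta3, whose mean of 8.40 fell below the means of nAChRbeta2 (9.02) and nAChRalpha2 (8.61).

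The spread within each genotype followed the 3 arrays that stood apart in some subunits and not in others. In 6 of the 12 probe sets all 3 arrays lay on one side of the other 5, as they did in 32.6% of all probe sets. They were above in nAChRalpha3, nAChRbeta2, the brighter nAChRbeta1 and the dimmer nAChRalpha1 probe set, by mean differences of 0.24, 0.35, 0.21 and 0.48 on the log2 scale. They were below in nAChRalpha5 and the dimmer nAChRbeta1 probe set, with mean differences of -0.41 and -0.61. The 2 probe sets of nAChRbeta1 therefore moved in opposite directions across the same arrays. The count of 6 pools the genotypes and cannot score nAChRbeta3, whose knockdown arrays all lay below its WT arrays. Within each genotype its arrays that stood apart were the brightest. With the control gene measure as a covariate the standard error of nAChRalpha5 went from 0.16 to 0.069 and that of nAChRbeta2 from 0.15 to 0.091. The ratio of the standard errors with and without the covariate ran from 0.43 in nAChRalpha5 to 0.99 in nAChRalpha2, and was also near 1 in the brighter nAChRalpha1 (0.97) and the dimmer nAChRalpha4 probe set (0.97). No subunit other than nAChRbeta3 was called in this fit, in which 0.597% of all probe sets were. The part of RNA or cDNA length in the spread was not tested.

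**Figure D4:**
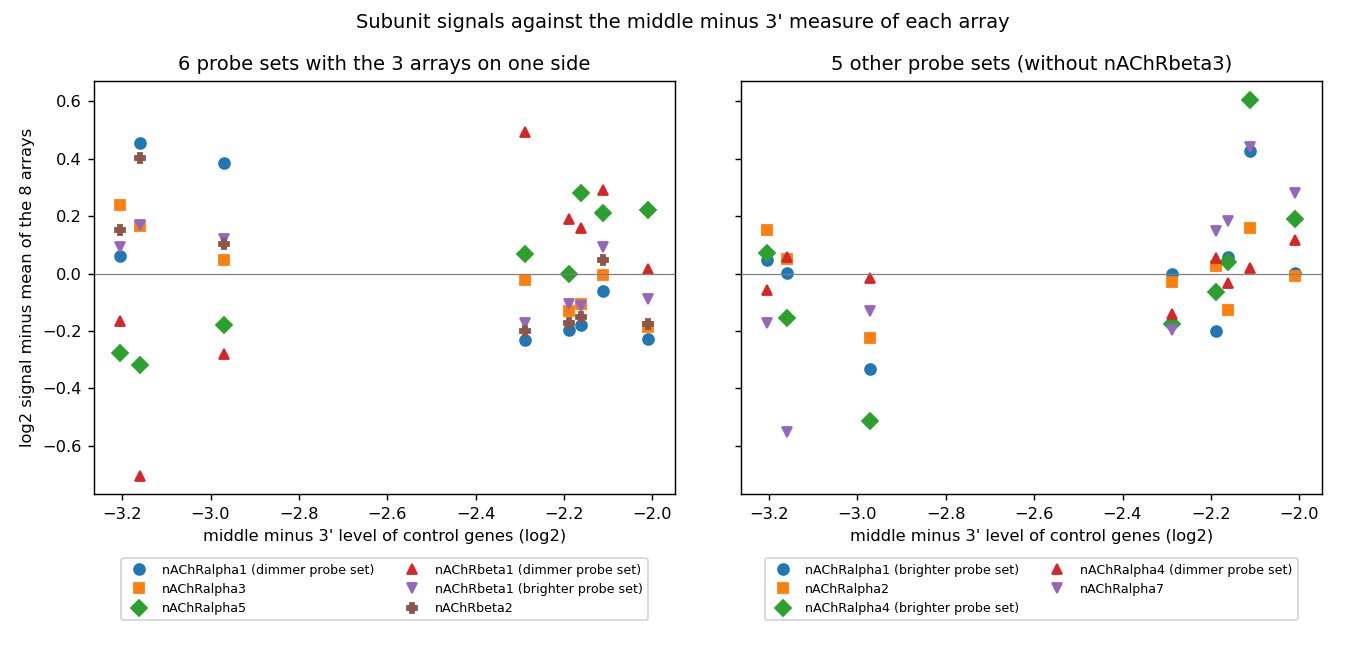
Log2 signal of each probe set minus its mean over the 8 arrays (vertical axis) against the mean middle minus 3' log2 difference of the GAPDH and Act5C control probe sets in that array (horizontal axis). In the left panel the 3 arrays at -3.20 to -2.97 lie on one side of the other 5 for each of 6 probe sets, above for 4 and below for 2, and the right panel holds the other 5 without nAChRbeta3.

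The genes that make, store and remove acetylcholine gave no call. Of 7 genes of the cholinergic synapse, 6 had a probe set, 4 with a value above 0 and 2 below it, and the median was 0.037. ChAT, which synthesises acetylcholine, had a log2 fold change of 0.071 (SE 0.11), VAChT, which loads it into vesicles, of 0.11 (SE 0.092), and ChT, which takes up choline, of 0.12 (SE 0.082). Ace, the esterase that ends the signal, had a log2 fold change of 0.0028 (SE 0.27). The muscarinic receptor genes mAChR-B and mAChR-C, whose products act through G proteins, had -0.19 (SE 0.18) and -0.044 (SE 0.068), and mAChR-C was dim, at 3.41 in WT heads. Of 6 genes of receptor assembly and modulation, 4 had a probe set and none was called. The brightest probe set of qvr (sleepless), a Ly6 protein that binds nicotinic receptors, had a log2 fold change of -0.049 (SE 0.11). hig and Hasp, of the matrix in the cleft of cholinergic synapses, had 0.18 (SE 0.16) and 0.022 (SE 0.091). CG13920, listed in RefSeq with the synonym NACHO, a receptor chaperone in mammals, had -0.13 (SE 0.096).

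The other receptors of the Cys-loop superfamily include channels gated by GABA, glutamate, histamine or pH, and 11 of 12 genes were read by 20 probe sets. None was called, 14 were above 0 and 6 below it, and the median log2 fold change was 0.038. The GABA receptor gene Rdl had a log2 fold change of -0.061 (SE 0.17), ort, the histamine receptor of the cells that photoreceptors signal to, of 0.066 (SE 0.17), and GluClalpha, the glutamate-gated chloride channel, of -0.13 to 0.14 over 4 probe sets. The largest value was that of CG6927, at 0.33 (SE 0.13, adjusted p = 0.626 from limma), a dim probe set at 4.34 in WT heads. Grd (3.01), pHCl-2 (2.96) and the dimmest probe sets of pHCl-1 (2.97) and GluClalpha (3.56) were dim as well. No probe set of these 20 had its genotypes apart, beside 5.35% of all probe sets, a share at which few or none of 20 would.

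Markers of the cells that a head holds were read beside nAChRbeta3. Of 13 neuron markers, among them elav and nSyb, 11 had a probe set, none of the 18 probe sets was called, and the median log2 fold change was 0.014. Some of the 18 were dim in WT heads and could hardly show a change, in brp (2.99, 3.20 and 4.33), cac (4.27) and futsch (4.14 and 4.76). The mean level of this list was 7.92 to 8.20 in the WT and 7.97 to 8.29 in the HEXIM knockdown arrays. Of 15 photoreceptor markers only 7 were matched to a probe set annotated to that gene alone, and the others are not covered here. All 7 had a negative log2 fold change, from -0.29 (trpl) to -0.083, and none was called. The median was -0.11, or -0.22 without the 3 arrays that stood apart. The genotypes did not overlap in trpl, a channel subunit of phototransduction. The mean level of the list was 12.38 to 12.70 in the WT and 12.22 to 12.56 in the HEXIM knockdown arrays. Of 9 glia markers 8 had a probe set, and the mean level of the list was 9.81 to 9.99 in the WT and 9.70 to 9.89 in the HEXIM knockdown arrays. Of its 8 probe sets 4 were above 0 and 4 below it, none was called, and the median log2 fold change was -0.033. The largest value among them was that of moody, a receptor of the blood-brain barrier glia, at -0.60 (SE 0.098, adjusted p = 0.073 from limma). Its genotypes did not overlap, and it passed with the control gene measure as a covariate (adjusted p = 0.0325 from limma). wrapper followed at -0.41 (SE 0.14, adjusted p = 0.506 from limma), and the largest rise was that of Indy, at 0.19. Of 10 muscle markers 7 had a probe set, with mean levels of 10.28 to 10.65 in the WT and 9.99 to 10.37 in the HEXIM knockdown arrays. Among these TpnC4, a troponin C, fell by 1.24 (SE 0.14, adjusted p = 0.0156) and the median log2 fold change of the list was -0.14, or -0.36 without the 3 arrays that stood apart. All 7 measured markers of fat body and female heads had positive log2 fold changes with a median of 0.91, none was called, and the median was 0.066 without WT replicate 3. In Fbp1, a receptor of the fat body, the genotypes did not overlap (log2 fold change 1.17, adjusted p = 0.243 from limma). The part of cell composition in the difference of nAChRbeta3 was not tested.

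The genes beside nAChRbeta3 on arm 2L did not pass the test. The 3 nearest measured genes on either side were cbt, Spp and Ets21C, and rempA, Tspo and uncNacbeta. Their log2 fold changes were 0.12, -0.15 and 0.28 on the first side and 0.037, -0.088 and -0.23 on the other, and the lowest adjusted p was 0.688, of uncNacbeta. Ets21C, a stress-responsive transcription factor, is the nearest measured gene on the first side and Spp, a signal peptide peptidase, the next one beyond it.

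The genes with the profile most like that of nAChRbeta3 over the 8 arrays were taken by the root mean square difference of the centred log2 signals. These were kek5 (0.14), scaf (0.14), CG40485 (0.15), CG13101 (0.15) and dlp (0.18). kek5 encodes a transmembrane protein of the Kekkon family, scaf a serine protease homologue and dlp a glypican, while no role is given here for CG40485 and CG13101. Their log2 fold changes were -0.71, -0.93, -0.84, -1.11 and -0.64 in that order. All but kek5 (adjusted p = 0.217 from limma) were called, beside 0.112% of all probe sets called as lower. As these genes were taken for their likeness to a probe set that fell, falls and calls largely follow from that choice. Like nAChRbeta3, kek5 was brightest in WT replicate 1 (8.18) and in HEXIM knockdown replicate 4 (7.56) within its genotypes. The likeness describes the same 8 arrays in which the difference was measured.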

How the data were processed

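Total RNA of entire heads from 4 WT and 4 HEXIM knockdown samples, described as biological replicates, was read on Affymetrix Drosophila_2 arrays. The authors deposited normalized log2 signals, made with RMA and Affymetrix Expression Console per the labels and with GCRMA per the study's methods. These signals were taken unchanged, and scanner files were not used here. Precision is limited by the number of arrays. Sample titles gave the groups. limma 3.58.1 (lmFit and eBayes, no replicate block) in R 4.3.3 was fitted to 18769 probe sets without the 183 controls, with Benjamini-Hochberg adjustment and no filter. Of these, 13646 carry 1 gene symbol in the annotation. Listed genes were matched to these probe sets only, so a gene counted as without a probe set may still be on the array. Python 3.11.15 with scipy 1.17.1 was used for the exact tests. Tested on simulated arrays of this comparison, with 50 shifted probe sets per size among 18769, it called 36%, 84%, 96% and 98% of those shifted by 0.5, 1, 2 and 3 on the log2 scale. A further 7 probe sets without a shift were called in it. The simulated noise was drawn independently for each probe set and array. It lacks differences shared by many probe sets of an array, such as those of the first principal component. The rates therefore need not hold for the real arrays.

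The members, lists, alternatives and naming rule were chosen with earlier results of these data known. The rule took every member probe set, Hexim, up to 4 genes of each list that passed the test or had the genotypes apart, the 3 nearest measured genes on each side of a called member and the 5 genes most like it. Other list genes were named for their role, after their values were seen. The alternatives were quantile normalization, median centring, a filter that leaves out the lowest quartile, trend and robust variance, array weights, a replicate block, a control gene covariate, leaving out arrays and averaging the probe sets of a gene.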

Additional observations from a re-analysis of the deposited data

Results flagged for a closer look

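The 12 subunit probe sets and Hexim give 26 sets of 4 arrays of 1 genotype. In 2 of them a single array lay at a distance from the rest that was large against the whole range, a test that marks about 1 in 20 sets by chance, or 1.3 of 26. For the brighter nAChRalpha1 probe set this array was WT replicate 1, with a log2 signal of 4.39 where the other WT arrays had 4.72 to 4.78. For the brighter nAChRalpha4 probe set it was HEXIM knockdown replicate 3, with 7.99 where the other HEXIM knockdown arrays had 7.21 to 7.32.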

How the results depend on the processing

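The fall of nAChRbeta3 kept its direction under all 16 alternatives and its call under 6. Among these 6 was the fit with array weights, where HEXIM knockdown replicate 2 weighed 9.03 and the other knockdown arrays 0.27 to 0.87. In the knockdown group that fit rests largely on the array with the lowest nAChRbeta3 signal (8.17). The call was lost with quantile normalization (log2 fold change -0.96, adjusted p = 0.0535 from limma), with a replicate block (-0.95, adjusted p = 0.204), without WT replicates 1 and 3 and HEXIM knockdown replicate 4 (-0.94, adjusted p = 0.12) and without any 1 array other than HEXIM knockdown replicate 4. Without 1 array its log2 fold change was -1.03 to -0.87 (adjusted p 0.0109 to 0.112). The number of subunit probe sets called was 0 in the first 3 of these fits and 0 to 1 without 1 array. Over all probe sets the 48 calls became 507 with array weights, 112 with the control gene covariate, 3 without the 3 arrays, 1 with a replicate block, and 10 to 48 without 1 array. The count was 48 without HEXIM knockdown replicate 4, 46 without HEXIM knockdown replicate 1 and 10 to 13 without any other single array. Fits with fewer arrays have fewer degrees of freedom, and the cause of the changes in these counts was not tested. Of the probe sets of the other lists, 1 was called as reported, 2 with median centring and with the covariate, 5 with array weights, 0 with a replicate block and without the 3 arrays, and 0 to 1 without 1 array.

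The sources do not say that same-numbered replicates share a cross or day, so the numbers were not taken as a pairing. The correlations of same-numbered replicates in their deviations from the group means were -0.11, 0.57, -0.19 and -0.72. These cannot decide whether the replicates were paired. WT replicates 1 and 3 both correlated best with HEXIM knockdown replicate 4, the array that stood apart with them. Only WT replicate 2 correlated best with the knockdown array of its own number. No other subunit probe set was called in any of 179 fits (lowest adjusted p 0.376), and their values near 0 changed sign in 37. With array weights these were the brighter nAChRalpha1 probe set (-0.12), nAChRalpha3 (-0.048), nAChRalpha4 (brighter -0.045, dimmer 0.024), nAChRalpha7 (0.016) and nAChRbeta2 (-0.063). With the covariate and without the 3 arrays they were the dimmer nAChRalpha1 (0.051 and 0.040) and brighter nAChRbeta1 probe set (0.022 and 0.038). nAChRalpha3 gave -0.0018 with median centring, the dimmer nAChRalpha4 probe set 0.0010 with quantile normalization and nAChRbeta1 0.064 as the mean of its probe sets. Without 1 array the ranges were -0.17 to 0.11 (dimmer) and -0.0100 to 0.20 (brighter) for nAChRalpha1, -0.059 to 0.082 for nAChRalpha3, -0.079 to 0.19 (brighter) and -0.026 to 0.041 (dimmer) for nAChRalpha4, -0.12 to 0.079 for nAChRalpha5, -0.24 to 0.091 for nAChRalpha7, -0.0064 to 0.39 (dimmer) and -0.066 to 0.048 (brighter) for nAChRbeta1 and -0.092 to 0.11 for nAChRbeta2.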
